A study of Rattus norvegicus with 3 samples.

Results

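The transforming growth factor beta (TGF-beta) system was described here through 10 genes of the 22250 measured, each found by its symbol in the gene lists of the files. They were the ligands Tgfb1, Tgfb2 and Tgfb3, the receptors Tgfbr1, Tgfbr2 and Tgfbr3, and the latency proteins Ltbp1, Ltbp2, Ltbp3 and Ltbp4. Single-nucleus RNA sequencing covered the heart apex (septum, left and right ventricle) of 12-month-old rats, with 1 library per genotype. The WT library carried no Dmd deletion, the BMD library came from rats with an in-frame deletion of Dmd exons 45 to 47 (the R-BMDdel45-47 line), and the DMD library from rats with a deletion of Dmd exon 52. Dmd encodes dystrophin, which links the cytoskeleton of muscle cells to the membrane. Both lines carry the deletion in the germline, so every cell class has it. The number of animals behind a library is not given in the sources used here.

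TGF-beta ligands are made as precursors that leave the cell folded inside their own propeptide, the latency-associated peptide. In this latent form the ligand cannot bind its receptors. The latent TGF-beta binding proteins LTBP1, LTBP3 and LTBP4 bond to this complex and anchor it in the extracellular matrix, from which integrins and proteases release it, while LTBP2 binds fibrillin but does not bind latent TGF-beta. Free ligand binds the type II receptor TGFBR2, which activates the type I receptor TGFBR1, and the proteoglycan TGFBR3 (betaglycan) presents ligand, TGF-beta2 above all. In the heart the pathway is known for driving fibroblasts to become matrix-secreting myofibroblasts.

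No library had a replicate, so no test between genotypes was made and no p-value is given. Levels are counts of unique molecular identifiers (UMIs) summed over the nuclei of a class and given per 1000000 UMIs of that class (CPM). All intervals are exact 95% intervals for counting error and say nothing of how animals vary. A gene was counted as higher or lower when it had at least 100 UMIs in the class over the 3 libraries and its CPM differed by at least 1.5-fold, a log2 ratio of 0.585. The BMD and DMD ratios share the WT library and are given side by side. Levels are compared between classes and libraries for one gene at a time, never between genes.

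The libraries held between 19215994 and 21609238 UMIs, and the median depth of a nucleus was 1212.5 UMIs (WT), 1486.5 UMIs (BMD) and 1229 UMIs (DMD). Between 12 and 20 barcodes were shared by each pair of libraries, among 24664 nuclei. Of these nuclei, 22843 fell into 9 classes named by marker genes, and 6 of 17 clusters stayed unnamed. The T or B cell-like class also held a cluster led by the natural killer cell genes Klrd1 and Prf1. The monocyte-like class was led by the granulocyte genes S100a9, S100a8 and Camp. It had 34 nuclei in WT, and its levels and ratios are not described because the estimate of free RNA in it was at least 67.2% of UMIs. The targeted gene Dmd had 16479 (WT), 20566 (BMD) and 19436 CPM (DMD) in cardiomyocyte-like nuclei, so the count of the whole gene did not set the deletions apart from WT.

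Among classes in which a member had at least 100 UMIs, the widest differences from WT were those of Tgfb2 in cardiomyocyte-like nuclei and Ltbp2 in fibroblast-like nuclei. Stretches before their RefSeq starts (assembly GRCr8) are shown with the motif found there in capitals. They are CAGAC, the box that SMAD proteins bind, on either strand in Ltbp2, and the palindrome CACGTG, the E-box, in Tgfb2. The Ltbp2 stretch is the 250 bases before the start on the minus strand, chr6:110257299-110257548, and the Tgfb2 stretch is 30 bases that begin 241 bases before the start on the minus strand, chr13:100792897-100792926. Other RefSeq models of both genes begin further upstream, so these stretches lie inside the gene models.
Ltbp2: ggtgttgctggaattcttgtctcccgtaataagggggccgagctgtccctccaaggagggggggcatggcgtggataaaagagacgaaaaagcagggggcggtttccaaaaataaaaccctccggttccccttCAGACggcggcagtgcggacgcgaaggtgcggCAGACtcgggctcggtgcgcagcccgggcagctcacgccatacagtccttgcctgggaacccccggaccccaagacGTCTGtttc
Tgfb2: cactcatccacaCACGTGtggaaggcaggg
The Ltbp2 window held 3 matches to CAGAC. At least 1 match was found in 42.93% of 33469 rat windows of 250 bases, and at least 3 matches in 2.54%. Of the 10 members, 2 held CAGAC in this window, the other being Ltbp1 with 1 match. CACGTG was found in the Tgfb2 window alone among the members and in 5.59% of all windows. A match is a description of letters, not of binding.

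Each member had a class in which it was highest. The plot of levels by class shows 3 patterns among the ligands, with Tgfb1 led by macrophage-like, Tgfb2 by cardiomyocyte-like and Tgfb3 by fibroblast-like nuclei. Among the receptors, Tgfbr1 was led by macrophage-like, Tgfbr2 by lymphatic-like and Tgfbr3 by fibroblast-like nuclei. The latency genes were led by fibroblast-like, endocardial-like and lymphatic-like nuclei. By the mean over libraries, cardiomyocyte-like nuclei had the lowest level of 8 of the 10 members, the exceptions being Tgfb2 and Tgfbr3.

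**Figure D1:**
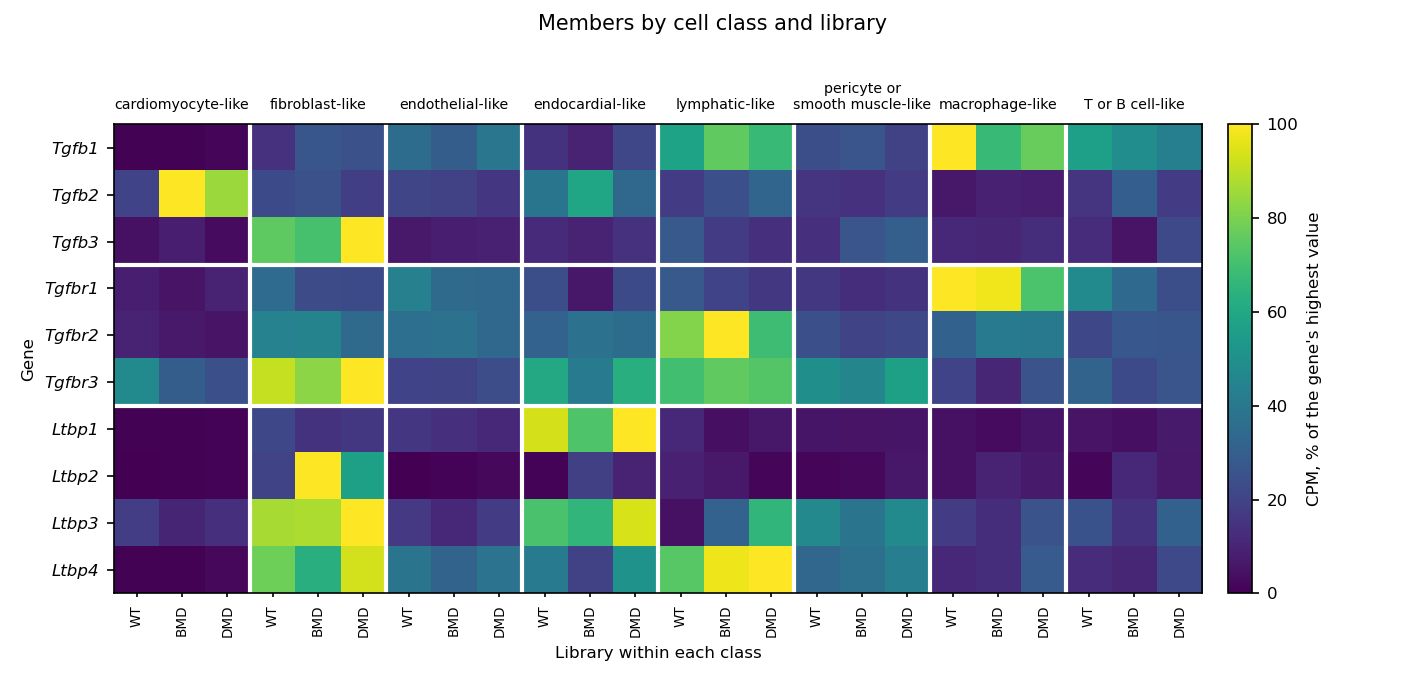
Level of each member (rows) in 8 named cell classes and 3 libraries (columns), as the percent of the gene's own highest CPM, so that colours compare classes within a row and not genes. Bright cells mark Tgfb1 and Tgfbr1 in macrophage-like nuclei, Tgfb2 in BMD and DMD cardiomyocyte-like nuclei, Ltbp1 in endocardial-like nuclei and Ltbp2 in BMD and DMD fibroblast-like nuclei.

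Tgfb2 (ENSRNOG00000002418) encodes the ligand that signals poorly without betaglycan. In cardiomyocyte-like nuclei it had 135 (WT), 674 (BMD) and 572 CPM (DMD). Both mutant libraries were thus well above WT, and the intervals of WT and either mutant did not overlap. The log2 ratio over WT was 2.32 (2.21 to 2.42) in BMD and 2.08 (1.97 to 2.19) in DMD, a 4.98-fold and a 4.23-fold difference. DMD was below BMD by a log2 ratio of -0.24 (-0.31 to -0.16). Tgfb2 had been seen among the highest genes of this class in an earlier reading of these data, so its place here is not independent support.

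In WT the class with the highest Tgfb2 was not the cardiomyocyte-like one but the endocardial-like one, at 261 CPM. Endocardial-like nuclei stood at 398 CPM (BMD) and 224 CPM (DMD). Fibroblast-like nuclei stood at 150, 168 and 126 CPM in WT, BMD and DMD, and endothelial-like nuclei at 141, 133 and 106 CPM. The ratio over WT in fibroblast-like nuclei was 0.16 (-0.01 to 0.33) in BMD and -0.25 (-0.42 to -0.08) in DMD, within 1.5-fold. The endocardial-like ratio was 0.61 (0.13 to 1.10) in BMD, and it was 0.58, inside 1.5-fold, once free RNA was subtracted. In those BMD nuclei 7 of 9 cardiomyocyte markers were past 1.5-fold higher, their summed level was 817 (WT), 1463 (BMD) and 1028 CPM (DMD) with none at 0, and their part was not tested. The free RNA estimate of this class rests on these same markers, so the subtraction is not a separate check. Lymphatic-like nuclei were past 1.5-fold in DMD at 220 CPM against 120 CPM in WT, a ratio of 0.88 (0.17 to 1.64) with free RNA at 27.2% of their UMIs. Macrophage-like nuclei had the lowest level of the classes, between 43.6 and 61.3 CPM. Free RNA, read from barcodes with at most 50 UMIs, held Tgfb2 at 96.5 (WT), 325 (BMD) and 196 CPM (DMD), and so moved in the same direction. T or B cell-like nuclei held 105 CPM (WT) and 201 CPM (BMD) of Tgfb2, or 110 CPM and 134 CPM once free RNA was subtracted. The cardiomyocyte-like levels were 137, 696 and 591 CPM after the same subtraction.

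Cardiomyocyte-like nuclei held 37.5% (WT), 74.7% (BMD) and 61.0% (DMD) of all Tgfb2 UMIs. They held 37.0%, 44.4% and 28.3% of the UMIs of all genes, and were 20.3%, 22.4% and 13.5% of the nuclei. In WT the Tgfb2 share was thus close to the share of all UMIs, and in both mutants it was above it. Fibroblast-like nuclei held 31.6% (WT), 8.10% (BMD) and 11.8% (DMD) of Tgfb2 UMIs, beside 28.1%, 19.4% and 24.8% of all UMIs.

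**Figure D2:**
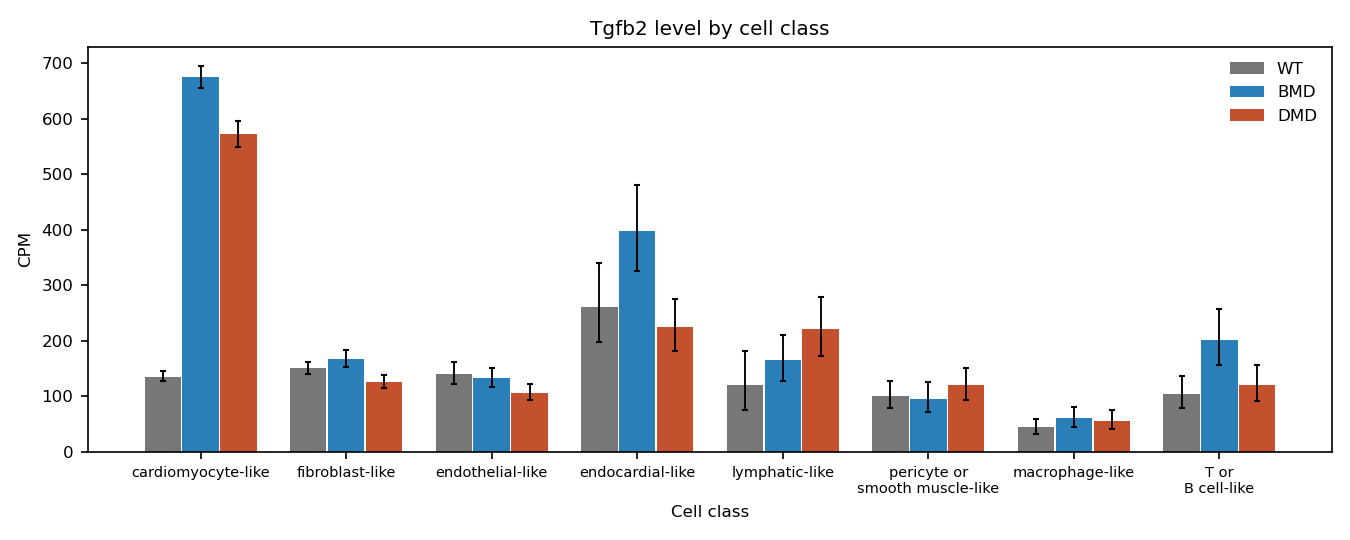
Tgfb2 CPM (vertical axis) in 8 cell classes for the WT, BMD and DMD libraries. Bars are summed counts over a class and error bars exact 95% Poisson intervals. The BMD and DMD bars of cardiomyocyte-like nuclei, at 674 and 572 CPM, stand above every other bar, and the WT bar of that class, at 135 CPM, is lower than the endocardial-like one at 261 CPM.

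More nuclei had the transcript, at equal depth. With each nucleus thinned to 500 UMIs, 4.05% of WT cardiomyocyte-like nuclei had a Tgfb2 UMI (82 of 2027 nuclei, Clopper-Pearson interval 3.23 to 5.0%). The share was 20.0% in BMD (305 of 1526 nuclei, 18.01 to 22.08%) and 17.3% in DMD (184 of 1065 nuclei, 15.1 to 19.7%). Without thinning the shares were 14.5%, 50.1% and 44.4%, at median depths of 2762, 3770 and 3249 UMIs. In macrophage-like nuclei, taken as the class with the least Tgfb2, the thinned shares were 2.07%, 1.78% and 2.17%, at median depths of 1146, 1151 and 1166 UMIs.

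Cardiomyocytes that re-express the fetal natriuretic peptide gene Nppa are a known sign of a strained ventricle. Nppa had 169 (WT), 890 (BMD) and 874 CPM (DMD) in cardiomyocyte-like nuclei. Tgfb2 was therefore read separately in nuclei with and without an Nppa UMI. With an Nppa UMI, Tgfb2 had 352 CPM in WT (302 nuclei), 853 CPM in BMD (837 nuclei) and 705 CPM in DMD (572 nuclei). Without one, it had 85.1 CPM in WT (1725 nuclei), 377 CPM in BMD (689 nuclei) and 373 CPM in DMD (493 nuclei). Tgfb2 was higher beside Nppa in all 3 libraries, and higher in both mutants in nuclei of either kind. The log2 ratio of nuclei with over nuclei without Nppa was 2.05 (1.85 to 2.24) in WT, 1.18 (1.07 to 1.28) in BMD and 0.92 (0.78 to 1.06) in DMD. By depth, nuclei with an Nppa UMI were deeper, with medians of 3666, 4245 and 3544 UMIs against 2647, 3249 and 2885 UMIs.

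At a finer resolution of 1.0 the cardiomyocyte-like nuclei fell into clusters whose Tgfb2 levels differed. None of the 10 members, and neither Nppa nor Dmd, had been used for clustering. In the cluster led by Lsamp and Myh6 (the alpha myosin heavy chain of the healthy adult rat ventricle), Tgfb2 was at 86.1 (WT), 308 (BMD) and 355 CPM (DMD). The log2 ratio there was 1.84 (1.67 to 2.01) in BMD and 2.04 (1.88 to 2.21) in DMD. In the cluster led by Hs3st2, Xirp2 and Gadd45g, with Nppa and Nppb also among its leading genes, Tgfb2 was at 769 (WT), 839 (BMD) and 813 CPM (DMD). The log2 ratios there were 0.12 (-0.03 to 0.29) and 0.08 (-0.09 to 0.25), both intervals holding 0, and the level was above that of the other cluster in each library. This second cluster was made up of 101 WT, 902 BMD and 393 DMD nuclei, and the first of 1918, 616 and 657.

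**Figure D3:**
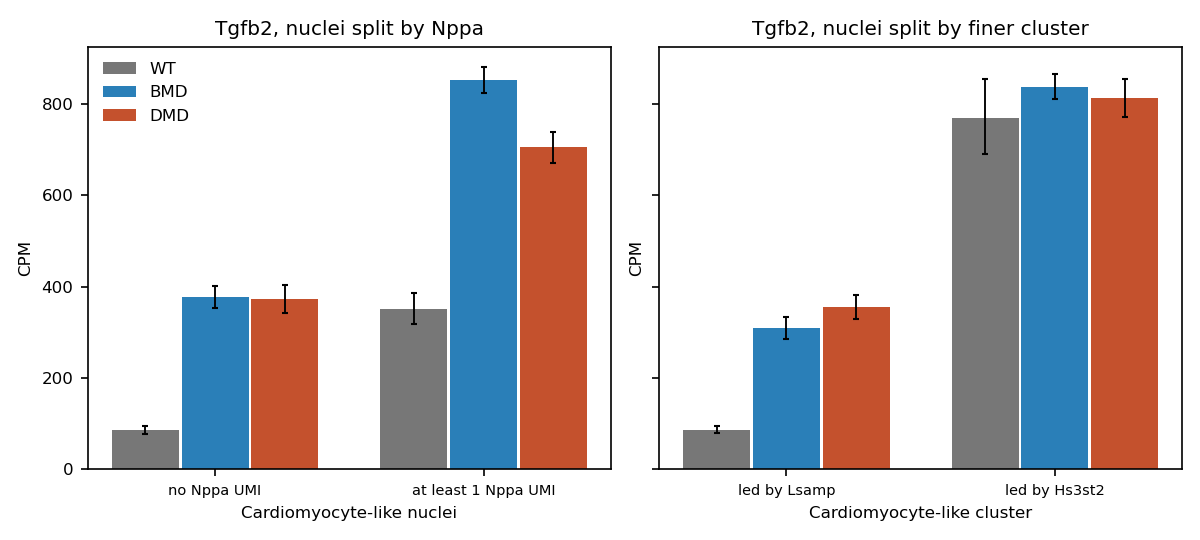
Tgfb2 CPM (vertical axis) in cardiomyocyte-like nuclei of the 3 libraries, split by the presence of an Nppa UMI (left) and by cluster at resolution 1.0 (right), with exact 95% Poisson intervals. WT is lowest in nuclei without Nppa, with Nppa and in the Lsamp-led cluster, whereas all 3 libraries lie between 769 and 839 CPM in the Hs3st2-led cluster.

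Tgfb1 (ENSRNOG00000020652), the ligand made by most immune cells, was led by macrophage-like nuclei with 224 (WT), 151 (BMD) and 172 CPM (DMD). WT was the highest of the 3, and the log2 ratio was -0.57 (-0.90 to -0.24) in BMD and -0.38 (-0.70 to -0.07) in DMD, within 1.5-fold. At resolution 1.0 a cluster led by F13a1 and Cd163 had 288 (WT), 422 (BMD) and 346 nuclei (DMD). One led by Spp1, with 5 macrophage markers, had 331, 115 and 144 nuclei. The part of this shift in the macrophage-like ratios was not tested. Lymphatic-like nuclei came next at 130, 170 and 151 CPM, overlapping with the macrophage-like range. Once free RNA was subtracted, the lymphatic-like levels were 163, 183 and 185 CPM. In fibroblast-like nuclei the order was the opposite of that in macrophage-like nuclei, with 32.1 (WT), 60.3 (BMD) and 55.3 CPM (DMD). The log2 ratio was 0.91 (0.59 to 1.23) in BMD and 0.78 (0.47 to 1.10) in DMD. At resolution 1.0 the BMD ratio was 0.74 (0.21 to 1.29) in the Pi16-led and 0.69 (0.02 to 1.39) in the Tnc-led fibroblast-like cluster. It was 0.85 (-0.29 to 1.89) in the Abca8a-led and -0.11 (-0.95 to 0.67) in the Aox3-led one. The DMD ratios in the same order were 0.77 (0.26 to 1.30), 0.56 (-0.29 to 1.40), 0.67 (-0.22 to 1.54) and 0.45 (-0.23 to 1.10). Macrophage-like nuclei held 30.8% (WT), 19.6% (BMD) and 18.3% (DMD) of all Tgfb1 UMIs, and fibroblast-like nuclei 22.1%, 28.3% and 25.4%. Cardiomyocyte-like nuclei had no more than 2.82 CPM in any library.

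Tgfb3 (ENSRNOG00000009867), the third ligand, was found mainly in fibroblast-like nuclei, at 87.3 (WT), 82.7 (BMD) and 116 CPM (DMD). DMD was highest, with a log2 ratio of 0.41 (0.21 to 0.62), and BMD was close to WT at -0.08 (-0.31 to 0.15). The fibroblast-like range lay above that of the next class, pericyte or smooth muscle-like nuclei, at 16.03 to 35.36 CPM. In cardiomyocyte-like nuclei Tgfb3 had 5.20 (WT), 9.78 (BMD) and 3.59 CPM (DMD), from 112 UMIs in all. The BMD log2 ratio was 0.99 (0.01 to 1.94) in the Lsamp-led cluster. In the Hs3st2-led one it was -0.56 (-1.71 to 0.83), with 7 UMIs in WT. The DMD ratios in the same order were -0.32 (-1.77 to 0.93) and -1.97 (-3.71 to -0.23).

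The likeness of each ligand to other genes was measured as Pearson's r of log2(CPM + 5) over 26 sums of class and library, among 9321 genes with at least 500 UMIs. The sums share libraries and depth, 2 of them are of monocyte-like nuclei with the free RNA given above, and no p is given. The genes most like Tgfb1 were Gsap (r = 0.96), Vav3 (0.94) and Cd47 (0.94). Those most like Tgfb3 were Cercam (0.93), Tsku (0.89) and Aspn (0.89). Tgfb2 had no close match, the first being Sptan1 (0.82), Mcc (0.80) and Luc7l2 (0.80). Without monocyte-like sums, over 24 sums, Gsap (0.96) and Cercam (0.93) were still first for Tgfb1 and Tgfb3, while Pam (0.82) came first for Tgfb2.

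Among the receptors, the accessory receptor Tgfbr3 (ENSRNOG00000002093) was lower in mutant cardiomyocyte-like nuclei, at 511 (WT), 315 (BMD) and 260 CPM (DMD). The log2 ratio was -0.70 (-0.78 to -0.62) in BMD and -0.98 (-1.08 to -0.87) in DMD. In the finer clusters the BMD ratio was inside 1.5-fold, at -0.54 (-0.66 to -0.42) in the Lsamp-led and -0.50 (-0.72 to -0.27) in the Hs3st2-led one. The DMD ratio was past 1.5-fold in both, at -0.97 (-1.11 to -0.84) and -0.73 (-0.98 to -0.48). With nuclei thinned to 500 UMIs, 21.0% of WT, 15.6% of BMD and 12.0% of DMD cardiomyocyte-like nuclei had a Tgfbr3 UMI. Fibroblast-like nuclei led this gene with 975, 882 and 1067 CPM and as a class differed little between libraries. Their finer clusters went both ways in DMD. The DMD ratio was 0.42 (0.26 to 0.57) in the Abca8a-led and 0.33 (0.23 to 0.42) in the Aox3-led cluster. It was -0.19 (-0.30 to -0.07) in the Pi16-led and -0.65 (-1.07 to -0.25) in the Tnc-led one. The BMD ratios in the same order were -0.18, 0.06, -0.31 and -0.49. In macrophage-like nuclei, the class lowest in this gene by the mean over libraries, BMD was lower at 116 CPM against 213 CPM in WT and 271 CPM in DMD. Their fibroblast markers had 5 of 9 past 1.5-fold lower in BMD, and the part of these was not tested. Free RNA held Tgfbr3 at 434 (WT), 260 (BMD) and 314 CPM (DMD).

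The type II receptor Tgfbr2 (ENSRNOG00000013265), without which no TGF-beta signal is passed, was led by lymphatic-like nuclei at 1065 (WT), 1309 (BMD) and 903 CPM (DMD). Free RNA was put at 28.9% (WT), 9.18% (BMD) and 27.2% (DMD) of lymphatic-like UMIs. Once it was subtracted, their Tgfbr2 levels were 1414, 1421 and 1180 CPM, with BMD close to WT. Fibroblast-like, macrophage-like, endothelial-like and endocardial-like nuclei followed with overlapping ranges between 404 and 585 CPM. Cardiomyocyte-like nuclei came last at 133, 89.2 and 70.7 CPM, with a log2 ratio of -0.58 (-0.73 to -0.42) in BMD, just inside 1.5-fold, and -0.91 (-1.11 to -0.71) in DMD. In macrophage-like nuclei Tgfbr2 was the other way, at 404 (WT), 546 (BMD) and 531 CPM (DMD). Those ratios were 0.43 (0.23 to 0.63) and 0.39 (0.19 to 0.60).

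Tgfbr1 (ENSRNOG00000007036), the type I receptor that phosphorylates SMAD proteins, was led by macrophage-like nuclei at 116, 114 and 83.6 CPM. Fibroblast-like nuclei had 40.9 (WT), 26.9 (BMD) and 26.3 CPM (DMD). The mutants were near each other and below WT, with log2 ratios of -0.60 (-1.0 to -0.22) and -0.63 (-1.01 to -0.27). Cardiomyocyte-like nuclei held 9.78 CPM (WT) and 6.02 CPM (BMD), a ratio of -0.70 (-1.31 to -0.10), while DMD was within 1.5-fold at 0.17 (-0.42 to 0.76).

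Ltbp2 (ENSRNOG00000012094) was the latency-family gene that differed most. In fibroblast-like nuclei it had 84.8 (WT), 410 (BMD) and 233 CPM (DMD). The log2 ratio was 2.27 (2.11 to 2.44) in BMD and 1.46 (1.28 to 1.63) in DMD, so BMD stood above DMD. At 500 UMIs per nucleus, 2.28% of WT fibroblast-like nuclei had an Ltbp2 UMI (1.81 to 2.83%), 11.6% of BMD (10.1 to 13.3%) and 6.38% of DMD (5.41 to 7.47%). Without thinning these were 5.18%, 23.6% and 12.5%, at median depths of 1214, 1590 and 1356 UMIs. Endothelial-like nuclei, at medians of 792, 1086 and 937 UMIs, had thinned shares of 0, 0.198% and 0.420%, and the exact upper bound for 0 of 1541 WT nuclei was 0.239%. Fibroblast-like nuclei held 82.1%, 86.0% and 73.7% of all Ltbp2 UMIs in WT, BMD and DMD. Free RNA held 17.8 (WT), 94.6 (BMD) and 77.5 CPM (DMD), and the fibroblast-like levels were 88.1, 428 and 245 CPM after it was subtracted.

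Fibroblast-like nuclei fell into 4 clusters at resolution 1.0, and Ltbp2 was higher than in WT in each. In the cluster led by Pi16, a marker of adventitial fibroblasts, Ltbp2 had 148 (WT), 454 (BMD) and 260 CPM (DMD). That cluster had 639 (WT), 669 (BMD) and 897 nuclei (DMD), beside 3512, 1637 and 2257 fibroblast-like nuclei. The part of this shift in the fibroblast-like ratios of Ltbp2 and of other genes was not tested. The cluster led by Tnc and Ccl2, which has Ltbp2 itself among its leading genes, was highest at 705, 1503 and 1995 CPM from 180, 141 and 79 nuclei. The clusters led by Aox3 and by Abca8a were low, at 9.97 and 9.72 CPM in WT, and had 75.9 and 100.2 CPM in BMD and 47.8 and 36.0 CPM in DMD. The plot of Ltbp2 by cluster shows that BMD was the higher mutant in 3 clusters and DMD in the Tnc-led one.

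**Figure D4:**
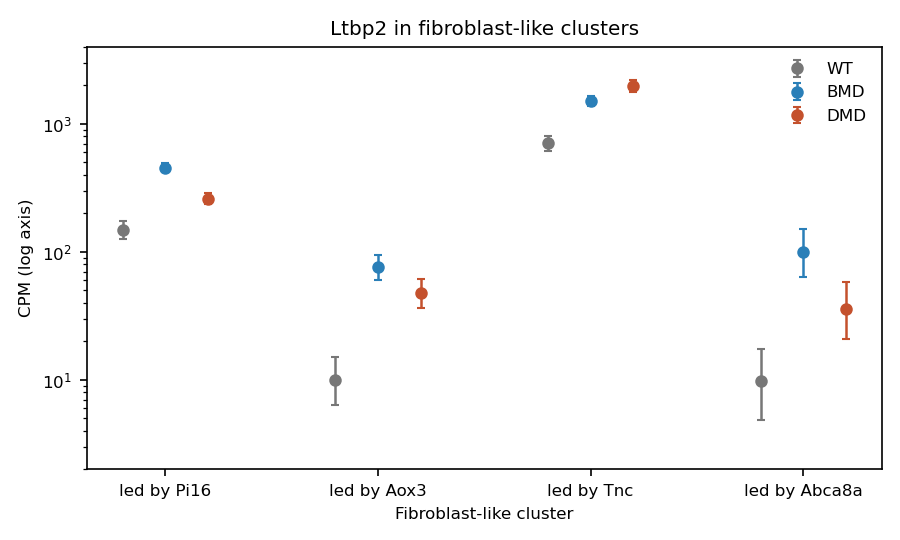
Ltbp2 CPM (vertical log axis) in 4 clusters of fibroblast-like nuclei at resolution 1.0, labelled by a leading gene, in the WT, BMD and DMD libraries. Points are summed counts with exact 95% Poisson intervals, and WT is the lowest point in each cluster, from 9.72 CPM in the Abca8a-led to 705 CPM in the Tnc-led one.

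Ltbp1 (ENSRNOG00000033090), whose protein anchors latent TGF-beta in the matrix, was by far highest in endocardial-like nuclei, at 2604 (WT), 2013 (BMD) and 2786 CPM (DMD). The next class were fibroblast-like nuclei with 603, 405 and 456 CPM, with log2 ratios of -0.58 (-0.67 to -0.48) in BMD and -0.40 (-0.49 to -0.31) in DMD. The BMD ratio was weaker in each finer cluster. It was -0.49 (-0.70 to -0.28) in the Pi16-led and -0.31 (-0.45 to -0.18) in the Aox3-led one. In the Tnc-led and Abca8a-led ones it was -0.27 (-0.75 to 0.21) and -0.15 (-0.44 to 0.13). The DMD ratios in the same order were -0.26, -0.10, 0.13 and -0.83. WT Ltbp1 was at 378 CPM in the Pi16-led and 754 CPM in the Aox3-led cluster. In cardiomyocyte-like nuclei, where the level was low, Ltbp1 had 12.5 (WT), 20.3 (BMD) and 26.7 CPM (DMD), ratios of 0.70 (0.29 to 1.12) and 1.10 (0.66 to 1.54). The Lsamp-led cluster gave -0.41 (-1.27 to 0.38) in BMD and 1.15 (0.59 to 1.70) in DMD. The Hs3st2-led cluster gave 1.47 (-0.13 to 3.78) in BMD and 1.84 (0.19 to 4.17) in DMD, with 3 UMIs in WT. Of 9 endothelial markers in cardiomyocyte-like nuclei, 5 were past 1.5-fold higher and 1 lower in BMD, and 7 higher and none lower in DMD. Their summed level was 118 (WT), 179 (BMD) and 217 CPM (DMD), and none was at 0 in all libraries. Of 9 fibroblast markers, none was past 1.5-fold higher and 4 were lower in BMD, and 6 were higher and none lower in DMD. Their summed level was 230 (WT), 189 (BMD) and 476 CPM (DMD). The part of both marker lists in the Ltbp1 values was not tested.

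Ltbp3 (ENSRNOG00000020813) and Ltbp4 (ENSRNOG00000020871) belong to the same family. Ltbp3 was led by fibroblast-like nuclei at 108, 109 and 124 CPM, and in cardiomyocyte-like nuclei it had 22.5 (WT), 13.1 (BMD) and 16.7 CPM (DMD). Those differences were -0.79 (-1.19 to -0.39) in BMD and -0.44 (-0.88 to -0.00) in DMD. Ltbp4, needed for elastic fibre assembly, was led by lymphatic-like nuclei at 402, 530 and 544 CPM, whose range overlapped that of fibroblast-like nuclei at 423, 342 and 506 CPM. Once free RNA was subtracted, the lymphatic-like levels were 477, 563 and 605 CPM. In macrophage-like nuclei Ltbp4 had 61.3 (WT), 71.3 (BMD) and 157 CPM (DMD), a log2 ratio of 1.36 (0.90 to 1.83) in DMD. Free RNA held 218, 210 and 381 CPM of Ltbp4, and 7 of 9 fibroblast markers were past 1.5-fold higher in DMD macrophage-like nuclei, with a summed level of 2697 (WT), 2036 (BMD) and 4446 CPM (DMD) and none at 0. Their part in the Ltbp4 value was not tested.

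Endocardial-like nuclei of the BMD library had less Ltbp4, at 108 CPM against 224 CPM in WT and 277 CPM in DMD. Its ratio in BMD over WT was -1.05 on the log2 scale (-1.77 to -0.36). The same 9 fibroblast markers had summed levels of 4350, 2322 and 4219 CPM in WT, BMD and DMD endocardial-like nuclei, 7 of them past 1.5-fold lower in BMD and none at 0, and their part was not tested.

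In cardiomyocyte-like nuclei 7 members had at least 100 UMIs. In BMD, 3 of them were higher (Tgfb2, Tgfb3 and Ltbp1) and 3 lower (Tgfbr1, Tgfbr3 and Ltbp3), where 7.51% of 8970 genes were higher and 8.48% lower by the same rule. In DMD, 2 were higher (Tgfb2 and Ltbp1) and 2 lower (Tgfbr2 and Tgfbr3), beside 8.96% and 9.68% of genes. The median log2 ratio of the 7 members was -0.58 in BMD and -0.44 in DMD, and that of all genes -0.06 and -0.04. In fibroblast-like nuclei all 10 members had at least 100 UMIs, and in each mutant 2 were higher (Tgfb1 and Ltbp2) and 1 lower (Tgfbr1). The background of 9421 genes there was 5.52% higher and 9.58% lower in BMD and 4.84% higher and 4.61% lower in DMD. The median over members was -0.03 in BMD and 0.17 in DMD, against -0.05 and -0.02 over all genes.

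**Figure D5:**
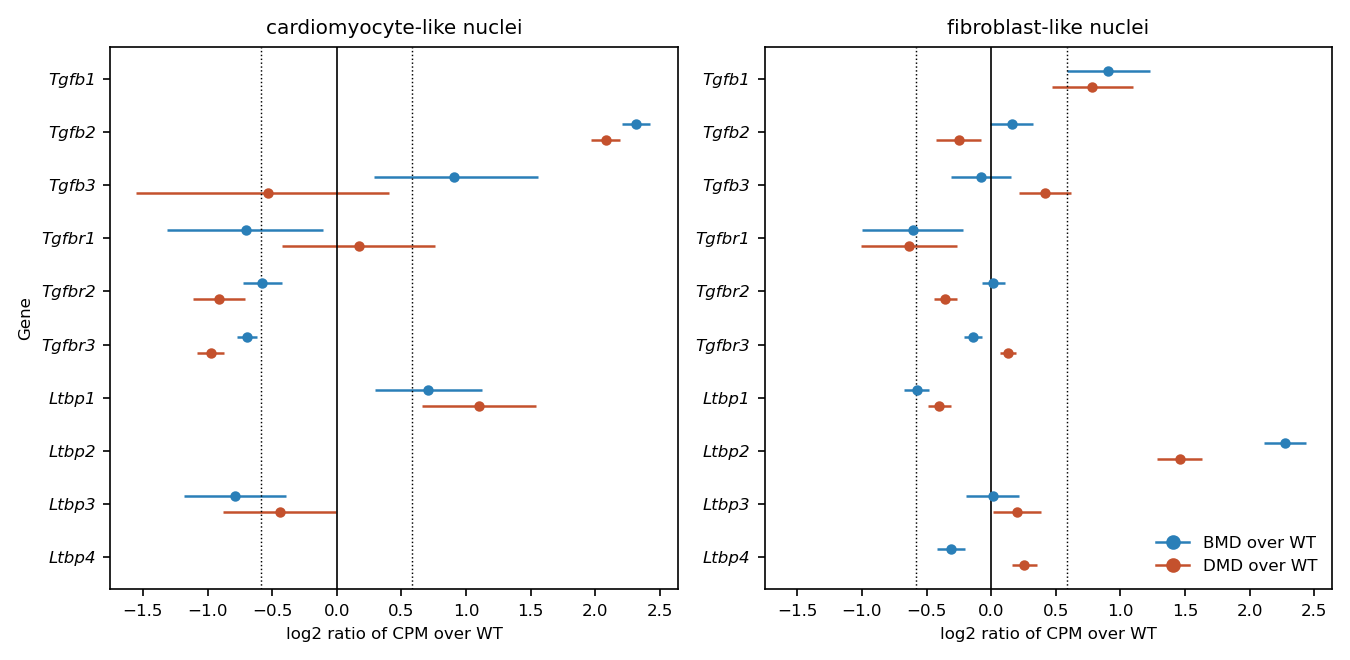
Log2 ratio of CPM over WT (horizontal axis) for the members (rows) in cardiomyocyte-like and fibroblast-like nuclei, BMD in blue and DMD in orange, with exact 95% counting intervals. Dotted lines mark 1.5-fold, and members with fewer than 100 UMIs in a class have no point. Tgfb2 in cardiomyocyte-like and Ltbp2 in fibroblast-like nuclei lie farthest to the right, and Tgfbr3 and Tgfbr2 lie to the left of 0 in cardiomyocyte-like nuclei.

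The rest of the pathway was read from a list of 68 genes, 66 of them in the files, that release ligand from latency, act as other receptors, carry or brake the signal inside the cell, or are known to rise with TGF-beta. In fibroblast-like nuclei 56 had at least 100 UMIs. Of these, 14 were higher and 7 lower in BMD, beside 5.52% and 9.58% of all genes, and 12 were higher and 2 lower in DMD, beside 4.84% and 4.61%. Over the whole list the shares that were lower were thus near the background. The median log2 ratio was 0.17 in BMD and 0.10 in DMD. The group of transcripts known to rise with TGF-beta had 9 of 16 higher and 1 lower in BMD, and 8 of 16 higher and none lower in DMD. Its median log2 ratio was 0.76 in BMD and 0.55 in DMD. Markers of other cell types also differed in these fibroblast-like nuclei. Of 9 cardiomyocyte markers, 7 were past 1.5-fold higher and 1 lower in BMD, and 5 higher and none lower in DMD. Their summed level was 713 (WT), 1109 (BMD) and 944 CPM (DMD). Of 9 endothelial markers, 3 were higher and 1 lower in BMD, and 8 higher and none lower in DMD. Their summed level was 89.2 (WT), 130 (BMD) and 190 CPM (DMD). Of 10 macrophage markers, 3 were higher and 1 lower in BMD, and 5 higher and none lower in DMD. Their summed level was below WT in both mutants, at 300 (WT), 249 (BMD) and 240 CPM (DMD). None of these was at 0, and their part in the fibroblast-like values was not tested.

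Ccn2, a matricellular growth factor, had 72.8 (WT), 293 (BMD) and 250 CPM (DMD) in fibroblast-like nuclei, and the NADPH oxidase gene Nox4 had 6.22, 46.5 and 54.1 CPM. The mutants were close to each other for both genes and well above WT. Nox4 was higher in endothelial-like nuclei, at 103, 174 and 105 CPM, and Ccn2 in mutant cardiomyocyte-like nuclei, given below. Ccn2 was also higher in endocardial-like nuclei, at 168 (WT), 476 (BMD) and 670 CPM (DMD), above cardiomyocyte-like nuclei in WT and DMD. Ccn2 was above its WT level in both mutants in every other class described, such as lymphatic-like nuclei at 21.7, 94.1 and 123 CPM. Free RNA was put at 28.9%, 9.18% and 27.2% of lymphatic-like UMIs and at 32.2% or more of T or B cell-like UMIs. It was not subtracted for Ccn2, and its part in these levels was not tested. Meox1, a transcription factor of activated fibroblasts, had 3.73, 13.4 and 18.1 CPM, and Cilp, a matrix protein that binds TGF-beta, had 17.8, 48.9 and 46.5 CPM. Cilp was also among the leading genes of the Pi16-led cluster. Acta2, which encodes the smooth muscle actin of myofibroblasts, was low at 6.22, 10.3 and 11.7 CPM, and its BMD interval of -0.05 to 1.51 held 0. Among the genes that carry or brake the signal, 3 of 17 were higher and none lower in each mutant, beside the background shares given above. They included the negative regulators Pmepa1 at 200, 331 and 354 CPM (log2 ratios 0.73 and 0.82) and Skil at 61.2, 102 and 94.4 CPM (0.73 and 0.63). The inhibitory Smad7 was past 1.5-fold in DMD at 142 CPM against 72.6 CPM in WT, and was at 104 CPM in BMD.

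Of 17 genes of activation and latency in fibroblast-like nuclei, 1 was higher and 6 were lower in BMD, beside 5.52% and 9.58% of all genes. In DMD 1 was higher and 1 lower, beside 4.84% and 4.61%. Those lower in BMD were Adamts1, Dcn, Emilin1, Fbn2, Lrrc32 and Thbs2. The one higher in both was Itga8, which encodes an integrin subunit that binds latent TGF-beta, at 4.77 (WT), 73.1 (BMD) and 36.5 CPM (DMD). The log2 ratio was 3.94 (3.31 to 4.63) in BMD and 2.94 (2.29 to 3.65) in DMD. Lrrc32, whose protein tethers latent TGF-beta to the cell surface, was lower in both, at 42.7, 18.6 and 28.1 CPM.

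In cardiomyocyte-like nuclei 43 of the list had at least 100 UMIs, of which 9 were higher and 7 lower in BMD, beside 7.51% and 8.48% of all genes, and 15 were higher and 3 lower in DMD, beside 8.96% and 9.68%. The median log2 ratio was -0.08 in BMD and 0.17 in DMD. Ccn2 led the list in this class, with 82.1 (WT), 486 (BMD) and 439 CPM (DMD) and log2 ratios of 2.56 (2.43 to 2.70) and 2.42 (2.27 to 2.56). The integrin genes Itga8 (15.8, 59.0 and 39.2 CPM), Itgb1 (244, 468 and 540 CPM) and Itgb8 (70.9, 116 and 108 CPM) were higher in both mutants, and their proteins form receptors that bind latent TGF-beta. So was the protease gene Adamts1, at 19.4, 36.1 and 60.0 CPM. Emilin1, which encodes an inhibitor of TGF-beta precursor processing, had 17.0, 35.0 and 27.4 CPM. Of 17 genes that carry or brake the signal, none was higher and 2 were lower in BMD, and none was higher and 1 lower in DMD, counts near those background shares. The one lower in DMD was Smad3, at 119 CPM in WT and 70.5 CPM in DMD. Tgfbi, which encodes an extracellular matrix protein induced by TGF-beta, was lower at 27.3, 9.02 and 16.9 CPM.

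Some of the cardiomyocyte-like calls in DMD were of fibroblast genes, namely Col1a1, Col3a1, Postn, Dcn and Bgn. Of 9 fibroblast markers, 6 were past 1.5-fold higher in DMD cardiomyocyte-like nuclei and none in BMD, with a summed level of 230 (WT), 189 (BMD) and 476 CPM (DMD) and none at 0, and their part in these calls was not tested. Dcn, Col1a1 and Col3a1 are themselves among those markers, so the marker values are not separate from these calls. Eln (4.10, 6.77 and 11.02 CPM) and Eng (5.99, 9.63 and 16.2 CPM), the genes of elastin and of the endothelial coreceptor endoglin, were low throughout, and the BMD interval of Eln held 0. The estimated share of free RNA was 3.31%, 5.73% and 4.76% (WT, BMD, DMD) among cardiomyocyte-like and 4.63%, 5.43% and 7.07% among fibroblast-like UMIs.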

How the data were processed

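The deposited values are raw counts of UMIs per gene and barcode from a 10x Genomics 3′ v3.1 kit (the results text of the study names 5′), made by the authors with Cell Ranger on rn6 per the processing notes. Strand and intron settings are not given in the sources used here. The WT counts came from the WT barcodes of an aggregate of all 3 libraries with a version 6.0.1 header, while each mutant library was read from a file of its own with a version 4 header, so counting software and genotype cannot be told apart for WT. Nuclei were the deepest barcodes of each library, as many as the methods state, with 513 UMIs or more. Counts were scaled to 10000 per nucleus, and 2000 variable genes, 30 principal components and 15 neighbours were clustered by Leiden at resolution 0.5 (scanpy 1.11.5, igraph 0.11.9), without batch integration and without the 10 members, the pathway list, Nppa, Nppb, Dmd, mitochondrial and sex genes. A class name needed 3 markers at least 2 times above all other nuclei. Clusters led by mitochondrial genes or by Flt3, with over 50% doublets or with markers of another lineage stayed unnamed, rules set after seeing the data. A cluster also stayed unnamed where another class had more markers among its leading genes, as for the Aox3-led one at resolution 1.0. Scrublet called 8.01%, 5.10% and 10.4% of WT, BMD and DMD nuclei doublets, which were kept except in an alternative. The share of free RNA in a class was estimated by putting all its UMIs of markers of other classes down to free RNA. These were fibroblast, macrophage and endothelial markers for cardiomyocyte-like nuclei and cardiomyocyte markers for every other class. Doublets were included in this estimate.

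Intervals are exact Poisson for sums, conditional binomial for ratios and Clopper-Pearson for shares (scipy 1.17.1). The functions were tested on simulated data for BMD over WT in cardiomyocyte-like nuclei, where 95.5% of intervals over 8970 genes held the true value. Those counts were drawn from the Poisson model that the intervals assume. The result is thus a check of the code and says nothing of spread between nuclei or animals. The members, lists and tests were chosen with earlier results of these data known. Named besides the members were genes of the pathway list past 1.5-fold in the same direction in both mutants, at most 8 per class. Also named were the 3 genes most like each ligand. Smad7, Smad3, Lrrc32, Itgb8, the other activation and latency genes lower in BMD fibroblast-like nuclei, and the fibroblast genes were named after their values were seen. Sequences are RefSeq's (GRCr8), with all 10 members matched. Alternatives were nuclei with at least 1000 UMIs, doublets removed, nuclei over 5% mitochondrial UMIs removed, resolution 1.0, free RNA subtracted, the thinned counts of the aggregate, the mean over nuclei, TMM scaling (edgeR 4.0.16), CPM plus 5 before the ratio, all nuclei, and minimums of 200 UMIs or none. Single finer clusters, shares without thinning, filters on the Nppa split and ligand likeness without monocyte-like sums were added after seeing the data.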

Additional observations from a re-analysis of the deposited data

Results flagged for a closer look

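Ltbp1 went in opposite directions in different classes of the same libraries, each past 1.5-fold with an interval without 0. In BMD over WT its log2 ratio was 0.70 in cardiomyocyte-like nuclei, -1.57 in lymphatic-like nuclei and -0.74 in macrophage-like nuclei. In DMD over WT it was 1.10 in cardiomyocyte-like and -0.86 in lymphatic-like nuclei. The difference between classes was not tested. The macrophage-like BMD value was 0.015 once Scrublet doublets were removed. The cardiomyocyte-like BMD value was -0.41 (-1.27 to 0.38) in the Lsamp-led cluster and 1.47 (-0.13 to 3.78) in the Hs3st2-led one. Lymphatic-like nuclei had 326 (WT), 110 (BMD) and 179 CPM (DMD), and free RNA was put at 28.9%, 9.18% and 27.2% of their UMIs. Of 9 fibroblast markers, 7 were past 1.5-fold lower in these BMD nuclei, with summed levels of 2700.0, 1469 and 2932 CPM and none at 0, and their part was not tested.

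The nuclei of the 6 unnamed clusters, which no comparison by class used, had some members above and others below the WT level. Tgfb2 had 129 (WT), 349 (BMD) and 253 CPM (DMD), log2 ratios of 1.44 and 0.98. Ltbp2 had 25.8 (WT), 70.4 (BMD) and 102 CPM (DMD), ratios of 1.45 and 1.99. In DMD, Tgfb3 (0.93) and Ltbp4 (0.83) were also higher there. In BMD, Tgfbr1 at -0.83 (-1.65 to -0.08) and Tgfbr3 at -0.59 (-0.75 to -0.43) were lower there. These clusters were those with mostly doublets, one led by Flt3, one led by mitochondrial and bone genes and one with Schwann cell and lymphocyte markers, and they held 6.95%, 5.93% and 9.19% of the nuclei (WT, BMD, DMD). The cluster led by mitochondrial and bone genes had 32 (WT), 69 (BMD) and 231 nuclei (DMD), so the make-up of the unnamed nuclei differed between libraries.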

How the results depend on the processing

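The log2 ratio of Tgfb2 in cardiomyocyte-like nuclei stayed inside its interval under the alternatives named in the methods, other than those given next. Over all nuclei it was 1.59 in BMD and 0.99 in DMD. In the Lsamp-led cluster it was 1.84 in BMD, and in the Hs3st2-led cluster 0.12 in BMD and 0.080 in DMD. The counts of members past 1.5-fold were small and moved more. In cardiomyocyte-like nuclei, members higher in BMD went from 3 to 1 with the mean over nuclei and with CPM plus 5, members higher in DMD from 2 to 5 with no minimum of UMIs, and members lower in DMD from 2 to 4 with free RNA subtracted. In fibroblast-like nuclei, members lower in BMD went from 1 to 2 with at least 1000 UMIs and at resolution 1.0, to 0 without nuclei over 5% mitochondrial UMIs, and to 0 with the mean over nuclei and with CPM plus 5. With these last settings, members lower in DMD also went from 1 to 0. At resolution 1.0 the Aox3-led cluster had no class name, so that alternative left it out of fibroblast-like nuclei. The higher count of 2 in fibroblast-like nuclei held in every alternative for both mutants. Shares of nuclei with a Tgfb2 UMI rose without thinning to 14.5%, 50.1% and 44.4%.

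Of 110 ratios of members over WT across the classes, 101 to 110 had their main sign under each alternative, and 22 to 36 were past 1.5-fold against 27 in the main setting. The share over all genes was taken only in cardiomyocyte-like and fibroblast-like nuclei, so these counts have no background beside them. Adding 5 to CPM cannot change a sign, so the 110 of that setting was fixed in advance. The ratios counted include those of Tgfbr3 in monocyte-like nuclei, from 130 UMIs. With free RNA subtracted, these and the ratios of Ltbp4 in T or B cell-like nuclei had no value. They were then counted as neither keeping their sign nor past 1.5-fold. Ltbp1 in macrophage-like nuclei, lower in BMD, turned to 0.015 once Scrublet doublets were removed, and the cause was not tested. The class highest for a gene was the same for 8 to 10 of the 10 members, and Tgfb1 and Tgfbr1 moved from the macrophage-like to the monocyte-like name at resolution 1.0, where that name also took in a cluster of 590 nuclei led by Spp1 with 5 macrophage markers. Free RNA could not be subtracted from monocyte-like nuclei. No paired analysis was possible because each genotype had 1 library, and for the same reason no library could be left out. Fewer than 100 UMIs were counted for Tgfb1, Ltbp2 and Ltbp4 in cardiomyocyte-like nuclei, which limits what can be said of them. The same held for Tgfb1, Tgfb3, Tgfbr1, Ltbp2 and Ltbp3 in some other classes, the monocyte-like one aside.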
